A study of Mus musculus with 4 samples.

Results

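The 100 protein-coding genes that left most RNA fragments in small RNA libraries of mouse fetal liver are described here, out of 12870 genes with at least 1 such read. A fragment read had 20 nt or more, matched no miRNA hairpin, also not after removal of 1 to 3 nt of tail, and matched without mismatch transcripts of a single protein-coding gene. The genes were ranked by reads summed over all libraries, after 29 genes were left out by name: the globins, the mitochondrially encoded genes, Igf2, Rtl1 and the most abundant liver secretory genes such as Alb and Afp. The members were therefore chosen by their total level, and that level is given as a description with no test. The rule did not compare the genotypes, but it also did not weigh them equally. The study holds 2 wildtype libraries and 2 libraries of the Ago2 catalytic dead mutant (Ago2 CD), whole fetal liver in each case. The labels give no fetal age, strain, sex or allele beyond these names. The design text calls the libraries of a genotype biological replicates, and whether each is 1 liver or a pool is not said. The ranking used raw reads, and the members had 8622 and 8972 in the wildtype libraries, against 28034 and 29864 in Ago2 CD. The choice therefore leaned toward genes with many reads in Ago2 CD.

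Argonaute proteins hold a small guide RNA and bind transcripts that pair with it. Ago2 can also cut a transcript across from its guide, and in red cell precursors this cut matures miR-451a, whose precursor is not processed by Dicer. A catalytic dead Ago2 lacks the cut but can still hold guides. Small RNA libraries also take up short pieces of mRNA, whose ends may come from any nuclease, so a fragment by itself does not tell which enzyme made it. Fetal liver is at once a growing liver and the main site of red cell formation in the fetus.

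The libraries held 13138065 to 21875540 reads. Fragment reads of 1 gene numbered 49633 and 55631 in wildtype, against 172340 and 143728 in Ago2 CD, with replicate 1 before replicate 2 in each case, here and below. The 100 genes held 8622, 8972, 28034 and 29864 of them, 75492 in all. The longest sequence listed was one of 50 nt for wildtype replicate 1 and for Ago2 CD replicate 2, and one of 46 nt for the other two. The labels give no run or read length, so these are called the 50 nt and 46 nt libraries by this length alone, 1 of each per genotype. Levels are given as CPM, reads per 1000000 fragment reads after TMM scaling. This correction aims to centre the bulk of genes, and the medians given with the gene test show how far it did. Red cell markers summed to 27970 to 35860 CPM and hepatocyte markers to 25360 to 58420 CPM, and neuron markers summed to at most 36.2 CPM and skeletal muscle and heart markers to at most 90.4 CPM. The defining muscle genes Acta1, Myh3 and Mylpf and the neuron genes Tubb3, Stmn2 and Snap25 had no read in any library.

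Most of the 100 genes had fragments with many different 5′ ends. In 72 genes fewer than 5% of the reads shared 1 5′ end, in 23 genes 5% to 20% did, and in 5 genes 20% or more did. The 95 genes below 20% had a median of 2.10% of reads on their most frequent 5′ end, and their reads covered a median of 64.3% of the transcript. Hectd4 had the lowest share, 0.713%, followed by Atp2b4, Hipk1 and Epb41. The plot of each gene's largest 5′ end against its reads shows this separation.

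**Figure D1:**
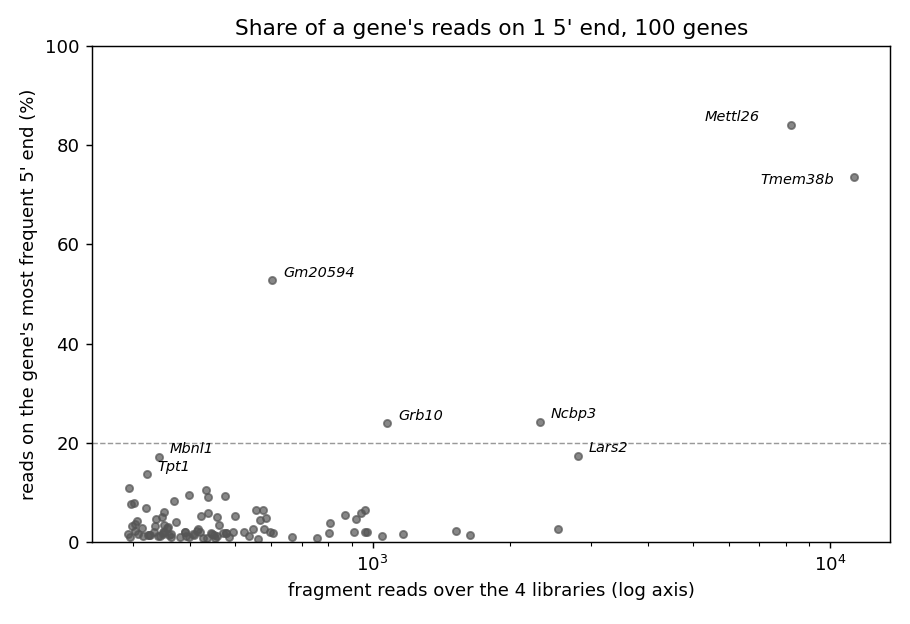
Share of a gene's fragment reads on its most frequent 5′ end (%, vertical) against its reads over the 4 libraries (log axis, horizontal), 1 point per gene of the 100. The dashed line marks 20%, and 5 genes lie above it, with Mettl26 at 84.0% and Tmem38b at 73.7%.

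The leading spread genes had erythroid, growth and liver roles. Slc4a1 (band 3, the anion exchanger of the red cell membrane; chromosome 11, 102348824 to 102366203, minus strand, GRCm38) came after Lars2, which is described with the stacked genes, and had 292 and 385 reads in wildtype, against 1092 and 777 reads in Ago2 CD. Its reads began at 1015 different bases and covered 92.1% of the transcript. Slc25a37 (mitoferrin, which brings iron into mitochondria) had 1630 reads in all, and the transferrin receptor gene Tfrc had 803. Mki67, a marker of dividing cells, had 1164 reads, 97.7% of them in the coding sequence. Cbx5, which codes for the heterochromatin protein HP1 alpha, had 1051 reads, 98.1% of them in the 3′ UTR. Ago2 itself had 971 reads, 90.4% of them in its 3′ UTR. Another 1705 reads matched Ago2 together with other protein-coding genes and were not counted.

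Per length the order was different. Among the spread genes Eef1a1 (translation elongation factor 1 alpha) had 847.8 reads per kb of transcript, Mt2 (a metallothionein) 722.1, Lars2 (a mitochondrial leucyl-tRNA synthetase) 720.3, Mt1 (a metallothionein) 666.7, Ahsg (fetuin A, secreted by hepatocytes) 620.0, Serpina6 (corticosteroid binding globulin) 587.5 and Slc4a1 560.2. The lowest value, 4.91 reads per kb, was that of D10Wsu102e, whose annotated transcript is 123179 nt long. The median over the 95 genes was 90.9 reads per kb. Where a gene has close copies or other matches the level is uncertain. Of the 100 genes, 18 had 50% or more of their reads matching also a transcript of another class, while 66 had under 5%. Among the 18 were Eef1a1 at 63.4%, Lars2 at 66.8%, Hspa8 at 91.1%, Rps2 at 94.7% and Rpl5 at 98.6%. The reads of Lars2 covered 16.5% of its transcript.

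The rank limit fell between near equal genes. The last 3 members, Kmt2d, Rpl5 and Dennd4a, had 296, 294 and 293 reads, and the next 3 genes, Uhmk1, Birc6 and Slc2a1, had 293, 292 and 292. Dennd4a and Uhmk1 were tied and were ordered by name.

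The fragments of the 95 spread genes were short and lay in 3′ UTRs and coding sequence alike. Their mean length was 22.7 nt and 23.3 nt in wildtype and 23.5 nt and 22.7 nt in Ago2 CD. Reads in the 3′ UTR made up 55.0% and 53.9% in wildtype, against 54.7% and 53.5% in Ago2 CD, where the 3′ UTR made up 42.9% of the length. The coding sequence held 41.8% and 43.3% against 42.4% and 43.02%, with 49.7% of the length, and the 5′ UTR held 2.78% to 3.50% with 7.47% of the length. These shares differed between genotypes by less than the spread between libraries of a genotype. Over an exon junction lay 5.75% and 5.75% of reads in wildtype, against 5.84% and 5.34% in Ago2 CD. Reads over a junction match the spliced transcript, but their source is uncertain where a gene has close copies. In Rps2 26.3% of reads lay over a junction, and 94.7% of its reads matched other transcripts as well. By gene, 50 of the 95 had over 50% of reads in the 3′ UTR and 38 in the coding sequence. The mean read length of a gene ranged from 22.45 to 23.62 nt. Lars2 is among the 95, with 99.7% of its reads in the 3′ UTR. It held 1581 of their 17599 reads in Ago2 CD replicate 2.

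Fragment lengths and last bases went with the longest sequence of the library. Reads of 20 to 24 nt made up 76.8% and 77.7% in the 50 nt libraries, against 69.2% and 67.4% in the 46 nt libraries. A last base C was found in 35.6% and 44.5% of reads in the 50 nt libraries and in 26.1% and 28.9% in the 46 nt libraries. The base C makes up 24.2% of these transcripts. Each 50 nt library thus lay above each 46 nt library in both measures.

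The 5 genes with stacked reads, and Lars2 just below the limit, are shown by their most frequent read, since here many reads share an end. The read printed made up 8248 of 11277 reads in Tmem38b, 1771 of 8225 in Mettl26, 199 of 604 in Gm20594, 497 of 2324 in Ncbp3 and 200 of 2805 in Lars2. Capitals in Mettl26 mark an A box, one of the 2 internal promoter motifs of tRNA genes.
Mettl26: gcgccgcTGGTGTAGTGGtatcatgcaaga
Tmem38b: tacttggatgggagaccgcc
Gm20594: ttgttccttaattagggacta
Ncbp3: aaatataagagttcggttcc
Lars2: attcaccaagcgttggattgtt

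The Mettl26 read lies in the 5′ UTR in exon 1 (chr17:25875088-25875117, plus strand, GRCm38). Its gene had 238 and 1326 reads in wildtype, against 5627 and 1034 in Ago2 CD, and 84.0% of them began at the same base. The transcript holds an A box at base 22 and, from base 65, the other motif, a B box (GTTCNANNC), searched on the sense strand within 60 nt after the A box. Of all protein-coding transcripts 0.944% hold both motifs in this order, and 6 of the 100 genes do: Mettl26, Ncbp3, Atp2b4, Xpo7, Tmem72 and Kmt2d. Genomic tRNA genes were not in the annotation used, so whether these are reads of a tRNA was not tested.

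The Tmem38b read (chr4:53860727-53860746, plus strand, 3′ UTR, exon 6) was found 966 and 0 times in wildtype, against 0 and 7282 times in Ago2 CD. The gene had 1425 and 47 reads in wildtype, against 131 and 9674 in Ago2 CD, so the read held most of them in 1 library of each genotype and none in the other. It also matched the annotated ribosomal RNA gene Gm22109, and 82.8% of the reads of Tmem38b matched other transcripts. The Gm20594 read (chr6:79818224-79818244, plus strand, 5′ UTR) matched the mitochondrial ribosomal RNA mt-Rnr2, and 98.7% of the 604 reads of the gene had such other matches. In Lars2 (chr9:123462050-123462071, plus strand, 3′ UTR, exon 21) 66.8% of reads matched other transcripts. The level of these genes is therefore not that of their mRNA alone. Ncbp3 (chr11:73083077-73083096, plus strand, 3′ UTR, exon 13) had 41.1% of its reads ending at 1 base, from 9 different starts, against 24.2% on its most frequent 5′ end. Tmem38b and Lars2 also had a larger share on 1 3′ end than on 1 5′ end, at 78.35% and 18.97%. Of the Ncbp3 reads 0.26% matched annotated transcripts of another class. A further 259 reads matched Ncbp3 together with other protein-coding genes and were not counted. The genome and tRNA genes were not searched.

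The levels of Tmem38b, Ncbp3 and Mettl26 went with the longest sequence of the library, and that of Lars2 did so mainly in Ago2 CD. Lars2 had 309 and 284 reads in wildtype, against 631 and 1581 in Ago2 CD, and Ncbp3 had 389 and 167 against 607 and 1161. Tmem38b and Ncbp3 were high in CPM in the 50 nt library of each genotype, whereas Mettl26 was high in the 46 nt library. Lars2 had 5590 and 4741 CPM in wildtype, which are close, against 3941 and 12260 in Ago2 CD. Over the 100 genes, reads on their gene's most frequent 5′ end in that library made up 18.6% and 19.7% in wildtype, against 22.9% and 30.7% in Ago2 CD. Over the 95 spread genes the values were 5.51% and 5.43% against 4.13% and 5.30%. A largest end taken in each library by itself tends to hold a larger share where reads are fewer. The 95 genes had 6421 and 7132 reads in wildtype, against 20834 and 17599 in Ago2 CD. The part of read number in these shares was not tested.

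**Figure D2:**
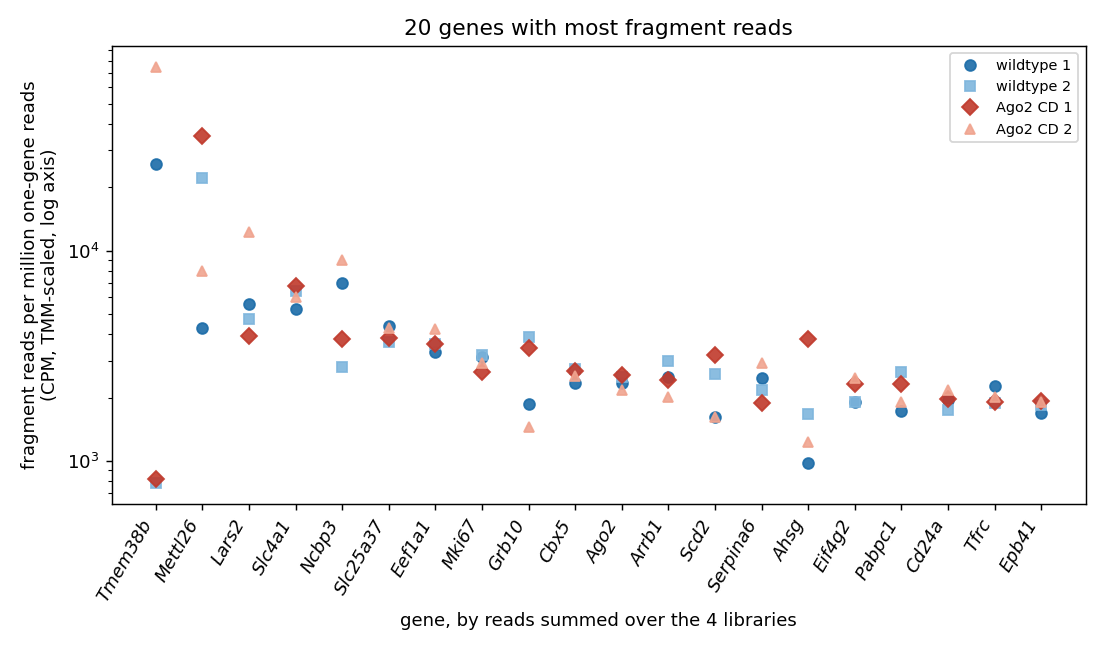
Level of the 20 genes with most fragment reads in each library (CPM, TMM-scaled, log axis), with genes in order of reads. Tmem38b, Mettl26, Ncbp3 and Grb10 spread widely between libraries of the same genotype, and Lars2 does so in Ago2 CD. Slc4a1, Slc25a37 and Ago2 lie close together in all 4.

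Grb10, an imprinted gene for an adaptor that dampens insulin receptor signalling, carried a pair of stacks that face each other. Both lie in the 3′ UTR in exon 17, at chr11:11932274-11932295 and chr11:11932233-11932254 on the minus strand (GRCm38). The capitals mark the longest run of each read that is complementary to the other, shown because this pairing sets the gene apart in the list.
Grb10 5p arm: aaccCCCTAAGCCAGCAGgagc
Grb10 3p arm: cctCTGCTGGCTTAGGGtgaga

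The first stack began at the same base in 27 and 71 reads in wildtype, against 129 and 31 in Ago2 CD, and the second in 20 and 56 against 96 and 13. Both stacks were thus present in each library, with more reads in the 46 nt library of each genotype. Counting starts within 3 nt, the stacks held 337 and 212 reads, 51.0% of the 1076 reads of the gene, and 86.9% and 81.1% of them were 21 to 23 nt long. The arms are 19 nt apart, and RNAfold gave the 83 nt window a minimum free energy of -41.9 kcal/mol with 16 bases of each arm paired with the other. The energy alone does not set Grb10 apart. In windows of up to 85 nt around each member's most frequent 5′ end, Herc1 reached -44 kcal/mol, Grb10 -42.6 and Rpsa -38.2. The ends of Herc1 and Rpsa had 8 and 15 reads. The longest complementary run was 14 nt. Between the most frequent 5′ end and the next most frequent end nearby, the same measure reached 10 nt in Ranbp2, from 4 and 2 reads, and at most 7 nt in the other members. The gene had 1863 and 3890 CPM in wildtype, against 3460 and 1442 in Ago2 CD, so the genotypes overlapped. Whether both stacks come from a hairpin precursor, and which enzyme makes them, was not tested.

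**Figure D3:**
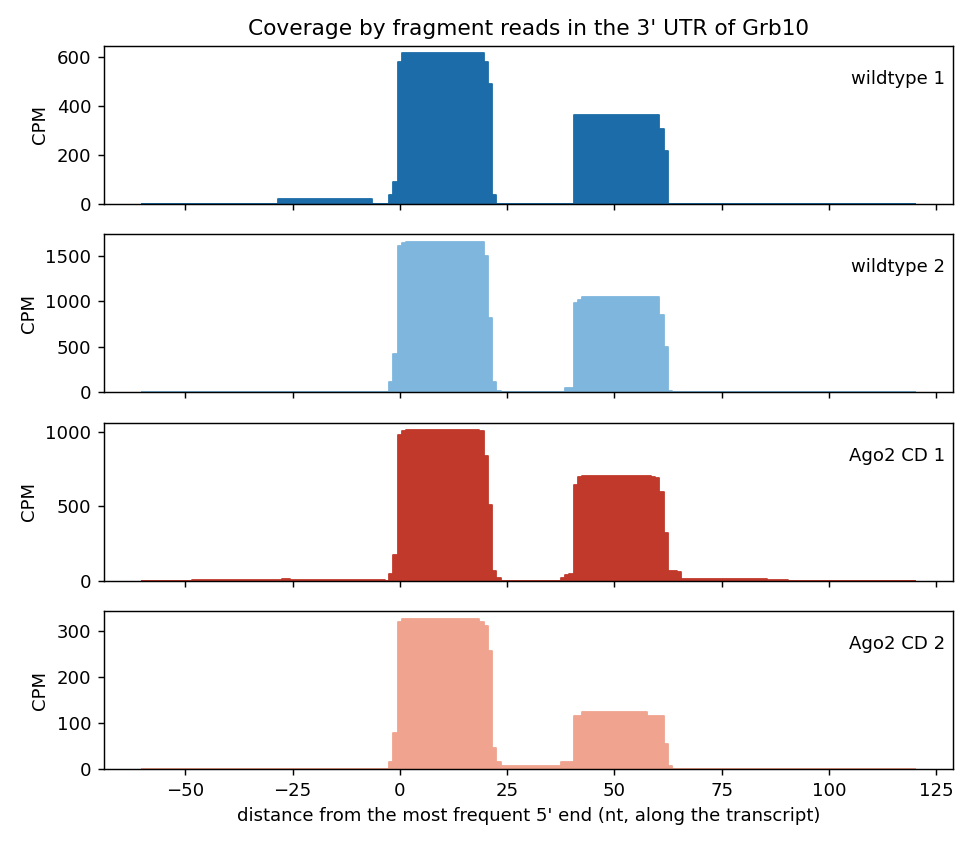
Coverage of the Grb10 3′ UTR by fragment reads in the 4 libraries (CPM, each panel on its own scale), against the distance from the most frequent 5′ end (nt). Each library shows 2 blocks of about the length of a miRNA with a gap between them.

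The first comparison describes the share of each library that the 100 genes held. They made up 0.295% (95% interval 0.289% to 0.301%) and 0.391% (0.383% to 0.399%) of reads of 20 nt or more outside hairpins in wildtype, and 0.656% (0.648% to 0.663%) and 0.836% (0.827% to 0.845%) in Ago2 CD. The intervals are exact Clopper-Pearson intervals and cover counting error only, since reads carried no molecular identifiers. Both mutant libraries lay above both wildtype libraries, at 2.17 times the mean. The rule chose the genes by these same reads, most of them from Ago2 CD, so the ratio is a description without a test. The ratio was 1.68 within the 46 nt libraries and 2.83 within the 50 nt libraries. Over the 95 spread genes it was 1.85. As a share of fragment reads of 1 gene, the 100 genes held 17.4% and 16.1% in wildtype, against 16.3% and 20.8% in Ago2 CD. Fragment reads of all genes made up 1.70% and 2.43% of reads outside hairpins in wildtype, against 4.03% and 4.02% in Ago2 CD. Without the 5 stacked genes, the other 95 held 12.9% and 12.8% of fragment reads of 1 gene in wildtype, against 12.1% and 12.2% in Ago2 CD.

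The second comparison was gene by gene, relative to all protein-coding fragments, with edgeR over 2312 genes. None of the 100 genes passed the threshold, an adjusted p under 0.05. Among all genes tested 0.0% were called higher and 0.13%, or 3 genes, lower, and 7.53% had an unadjusted p under 0.05, as did 7 of the 100. DESeq2 called 0 of the 100 as well. All 100 passed the filter on low counts. Their median log2 difference was 0.19, beside 0.16 over all genes tested. The median over all genes tested was -0.09 with no TMM scaling and 0.04 with DESeq2 size factors. The TMM scale was thus not fully centred. In 33 of the 100 both mutant values lay above both wildtype values, against 28.7% of genes tested, and in 7 they lay below, against 10.6%: both shares are near the background. With all reads outside hairpins as library size the median over all genes moved from 0.16 to 0.92, and 1 gene was called higher and 1 lower, in place of 0 and 3.

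Ppia, the gene for the peptidyl-prolyl isomerase cyclophilin A, had the smallest p of the 100. It had 111 and 101 reads in wildtype, against 118 and 108 in Ago2 CD, or 2008 and 1686 CPM against 737.0 and 837.2. The mutant values lay below both wildtype values (log2 difference -1.23, SE 0.25, edgeR adjusted p = 0.133, n = 2 per genotype). Without reads that also match other transcripts, 58.5% of the gene's reads, the log2 difference was 0.26. Ppia was called lower without wildtype replicate 2, with no TMM scaling, with no filter on low counts and with the longest sequence of the library in the model.

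The other 4 members with the smallest p among those lower in both mutant libraries were Xpo7, a nuclear export factor gene (1375 and 1052 CPM against 818.2 and 720.9, log2 difference -0.65), the beta-arrestin gene Arrb1 (-0.31), the red cell membrane gene Ermap (-0.26) and Ranbp10 (-0.21). None passed, and each of these 4 signs turned with all reads outside hairpins as library size. On the higher side stood Hipk2, a nuclear kinase, with 55 and 63 reads in wildtype, against 305 and 243 in Ago2 CD. Its CPM were 994.9 and 1052 against 1905 and 1884 (log2 difference 0.89, SE 0.25, edgeR adjusted p = 0.520), close within each genotype and apart between them. Hspa8, the constitutive Hsc70 chaperone, followed with a log2 difference of 0.80, Gm20594 with 0.79, the complement gene C3 with 0.75 and the ubiquitin ligase gene Nedd4 with 0.68, all short of the threshold. The difference of Hspa8 was -0.02 without reads that match other transcripts.

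Calls among the 100 depended on single libraries for the stacked genes. Without wildtype replicate 1 Tmem38b was called higher, and without Ago2 CD replicate 2 it was called lower. Without wildtype replicate 2 Mettl26 was called higher together with the lower call of Ppia. With no filter on low counts Tmem38b was called higher. With the longest sequence in the model Hipk2, Mettl26 and Tmem38b were called higher and Ppia lower.

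Across roles, none of 15 gene lists held a called gene. Only 0.13% of all 2312 genes tested were called, so this absence sets no list apart. The list medians below stand beside a median log2 difference of 0.16 over all genes tested. Of 24 genes for heme synthesis and iron 17 were tested and 7 were members, among them Slc25a37, Tfrc, Cpox and Fech, with a median log2 difference of -0.03. Cpox and Fech code for enzymes of late steps of heme synthesis. The red cell membrane list had 25 tested genes and 7 members, with a median of 0.13, and Slc4a1, at 5282 and 6427 CPM in wildtype, against 6820 and 6023 in Ago2 CD, overlapped between genotypes. Erythroid regulators and enzymes had 24 tested genes and 4 members (Car2, Xpo7, Foxo3, Gpx1), with a median of 0.16.

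Translation genes were a second large role. Ribosomal protein genes had 60 tested genes and 4 members (Rplp0, Rpsa, Rps2, Rpl5), with a median of 0.41, and translation factors had 29 tested and 5 members, with a median of 0.18. Eef1a1 had 3292 and 3606 CPM in wildtype, against 3585 and 4256 in Ago2 CD, which overlap. Chaperones had 22 tested genes and 3 members (median 0.46), nuclear and chromatin proteins 41 and 6 (0.28), and the cytoskeleton list 20 and 3 (0.21). Replicative histones and the glycolysis list had 0 members, with medians of 0.03 and 0.27.

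Hepatocyte secreted proteins had the highest median among the 15 lists, while hepatocyte enzymes lay below chaperones (0.46) and ribosomal protein genes (0.41). The secreted proteins had 28 tested genes and 5 members, among them Serpina6, Ahsg, Fn1 and C3, with a median of 0.60, and hepatocyte enzymes had 14 and 2 members, Mt1 and Mt2, with a median of 0.40. Ahsg had 976.9 and 1669 CPM in wildtype, against 3797 and 1225 in Ago2 CD: only the first mutant library was high. The 14 hepatocyte markers summed to 25360 and 38010 CPM in wildtype, against 58420 and 39500 in Ago2 CD, with all 14 read in at least 3 libraries. Ago2 CD replicate 1 was thus the highest for the markers and for Ahsg, which is 1 of the 14. It was also the highest for the red cell markers. These summed to 27970 and 32050 CPM in wildtype, against 35860 and 28990 in Ago2 CD. The part of cell makeup in these values was not tested, and in bulk tissue fewer cells of a type and less RNA per cell cannot be told apart. The imprinted list had 10 tested genes and 2 members, Grb10 and Peg3 (median 0.34), and the matrix list 9 and 1, Fn1 (0.12).

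The small RNA pathway list had 15 tested genes and 4 members, with a median of 0.20. Ago2 had 2334 and 2504 CPM in wildtype, against 2567 and 2178 in Ago2 CD, and the genotypes overlapped. These reads do not check the labels, because a catalytic mutant can keep its mRNA. Tnrc6b, a partner of Argonaute in silencing, had 1628 and 1169 CPM against 1461 and 1442, which also overlap. Pabpc1, the poly(A) binding protein that meets the Tnrc6 proteins, had 1719 and 2638 against 2311 and 1907.

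A cut by Ago2 leaves a downstream piece with a fixed 5′ end, so the third comparison was made by 5′ end. Of 228 ends with enough reads, 65 belonged to the 100 genes, and edgeR called 0.0% higher and 0.0% lower. There were 18 ends with an unadjusted p under 0.05, 5 of them in members. DESeq2 called 5 ends lower, and 2 of them were in Ppia. Both mutant values lay above both wildtype values in 7 of the members' ends, against 20.6% of all ends tested, and below them in 4, against 8.77%. All 4 lower ends were in Ppia. Those at bases 744, 745 and 746 of its transcript are neighbours, so the 4 ends are not separate places. All reads at these places also matched other transcripts.

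The members' ends named on the higher side were all in Mettl26, inside its stack. The end with the smallest p had 2 and 3 reads in wildtype, against 21 and 42 in Ago2 CD (log2 difference 2.36, SE 0.89, edgeR adjusted p = 0.508), and those that followed had log2 differences of 1.80 and 1.59. The main Ppia end had 21 and 16 reads in wildtype, against 1 and 2 in Ago2 CD (log2 difference -4.78, SE 0.92, edgeR adjusted p = 0.141, n = 2 per genotype). The ratio of mutant to wildtype rates was 0.0323 (exact counting interval 0.00637 to 0.102). The Ppia ends that followed had 6 and 12 reads in wildtype and none in the mutant, and 10 and 7 against 1 and 0. With the longest sequence of the library in the model, edgeR called 25 ends, 11 of them in members: 4 ends of Ppia lower, and others in Grb10, Lars2, Mettl26 and Tmem38b.

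Fragments of the 100 genes that hold the complement of the miR-451a seed were lower in Ago2 CD. This comparison was added after the data had been seen: each word of 7 nt was counted in the reads of the 100 genes and tested like a gene. The sequences show the miRNAs with bases 2 to 8, the seed, in capitals, as RefSeq gives them, and fragments of members with the complement of the seed in capitals. The fragment without capitals lies before the site.
miR-451a: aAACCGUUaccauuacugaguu
Ddx5 over the site: taccagAACGGTTatgatagca
Ppia over the site: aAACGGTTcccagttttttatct
Ywhaz over the site: tctggtaagggcagaAACGGTTc
Ppia before the site: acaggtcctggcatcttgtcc
miR-144-3p: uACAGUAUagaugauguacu
Eif4g2 over the site: aATACTGTagagatgcactttgctcag
Prrc2c over the site: catccctATACTGTatgacc

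The word AACGGTT, complement of the miR-451a seed, was in 34 and 21 reads in wildtype, against 2 and 4 in Ago2 CD. In CPM these were 615.1 and 350.6 against 12.5 and 31.01, so the genotypes were far apart. The log2 difference was -4.45 (SE 0.51, edgeR adjusted p = 0.00012, n = 2 per genotype), the smallest p of 8151 words, and it ranged from -5.12 to -3.89, always called, on leaving out each library. Over all words, 0.0% were called higher and 0.233%, or 19 words, lower, with 422 at an unadjusted p under 0.05. With all reads outside hairpins as library size 534 words were called higher and 9 lower, of 8416 tested. Of the 19 words, 14 had over 50% of their wildtype reads from Ppia. Without Ppia, AACGGTT alone was called (log2 difference -4.46, edgeR adjusted p = 0.0025). Reads that begin with the first 18 nt of miR-451a numbered 5601272 and 3358867 in wildtype, against 17194 and 10323 in Ago2 CD.

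Most of these reads came from 3 genes. The word occurs in the transcripts of 5 of the 100 genes, and in 3.15% of all protein-coding transcripts. Ddx5, an RNA helicase gene, had 18 and 5 reads over its site in the coding sequence in wildtype, against 0 and 1 in Ago2 CD. Ppia had 10 and 7 against 1 and 1, also in the coding sequence, and all of these reads matched other transcripts as well. Ywhaz, which codes for the adaptor 14-3-3 zeta, had 5 and 7 against 0 and 1 in its 3′ UTR. In these 3 genes the wildtype libraries were above the mutant libraries without overlap. Eif4ebp2, an inhibitor of cap-dependent translation, had 1 read in each library, and D10Wsu102e had 1 read in all. Ddx5 and Ywhaz as whole genes had 868.3 and 684.5 CPM against 805.7 and 689.9, and 669.3 and 901.5 against 687.0 and 759.7, so the genes overlapped between genotypes where the reads over the site did not.

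The same word was lower in genes outside the 100, where it had 293 and 367 reads in wildtype, against 42 and 28 in Ago2 CD (log2 difference -4.56, SE 0.25, edgeR adjusted p = 4.9e-13). Of 15642 words tested in those genes, 48 were called higher and 55 lower. The pattern was first noticed over all genes, so this is no independent support.

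In Ppia the loss lay in 2 places. Reads whose 5′ end was 60 to 40 nt before the site numbered 42 and 33 in wildtype, against 3 and 3 in Ago2 CD, among them the fragment shown for the place before the site (chr11:6419200-6419220, plus strand, exon 4, coding sequence). Reads that began from 20 nt before to 6 nt after the start of the site numbered 29 and 29 against 1 and 2. In CPM the places had 759.8 and 550.9 against 18.7 and 23.3, and 524.6 and 484.1 against 6.25 and 15.5. Elsewhere in the transcript the values were 705.5 and 634.4 CPM in wildtype, against 705.8 and 798.4 in Ago2 CD, level between genotypes. All reads at both places also matched other transcripts, so they cannot be assigned to Ppia alone.

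**Figure D4:**
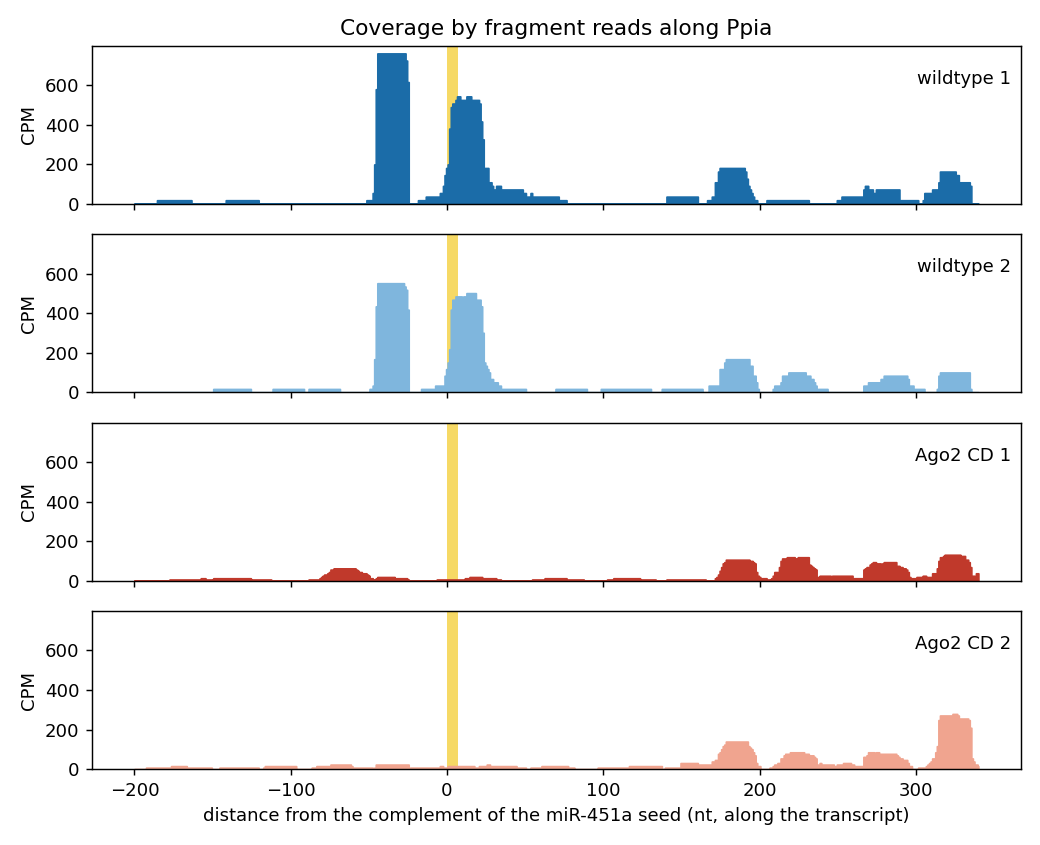
Coverage of the Ppia transcript by fragment reads in the 4 libraries (CPM, common scale), against the distance from the complement of the miR-451a seed (nt), which is marked by the yellow bar. Both wildtype libraries show peaks before and at the site that are nearly absent in both Ago2 CD libraries, while coverage farther away is alike.

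MiR-144 is made from the same primary transcript as miR-451a, by way of Dicer. The complement of the miR-144-3p seed, ATACTGT, was in 9 and 20 reads in wildtype, against 51 and 41 in Ago2 CD, or 162.8 and 333.9 against 318.5 and 317.8 CPM. The genotypes overlapped (log2 difference 0.34, SE 0.39, edgeR adjusted p = 0.9985). The word occurs in 21 of the 100 genes, and in 12.25% of all protein-coding transcripts, and 12 of the 21 had reads over it. Eif4g2, a translation initiation factor gene, had 5 and 9 against 15 and 9 reads, Prrc2c 2 and 3 against 12 and 16, and Epb41, which codes for band 4.1 of the red cell skeleton, 1 and 6 against 7 and 4. The sign of the difference turned without wildtype replicate 1. Whether the difference of ATACTGT differs from that of AACGGTT was not tested.

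To set these sites beside those of other miRNAs, reads over the seed complement were divided by the number that an even spread of each gene's reads along its transcript would give, in the 95 spread genes and for the 12 most abundant seed families. For miR-451a the ratio was 12.7 in wildtype, from 55 reads, and 0.934 in Ago2 CD, from 6. For miR-144-3p it was 2.71 and 2.83, for miR-16 1.07 and 1.07, and for let-7a 1.89 and 1.55. MiR-19b had 3.21 and 3.99, with 59.7% of its reads from Agfg1, and miR-142a-3p 4.33 and 1.83, with 61.2% from Huwe1. The other 6 families lay between 0.338 and 2.91 in wildtype and between 0.999 and 3.72 in Ago2 CD. These ratios are descriptions of pooled reads, without a test, and several rest on few reads from 1 gene.

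**Figure D5:**
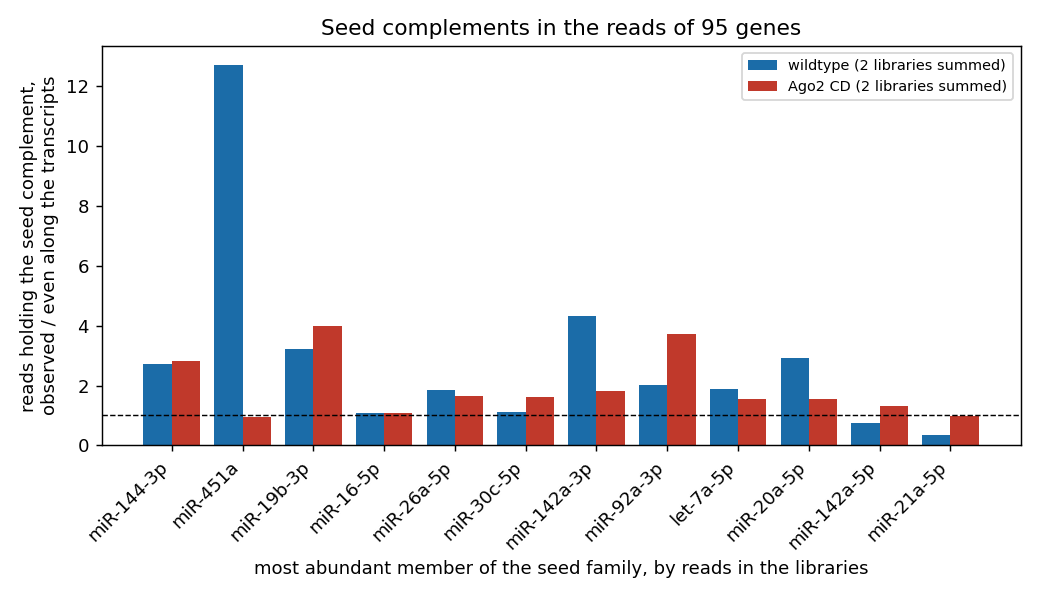
Reads over the complement of a miRNA seed in the 95 spread genes, as observed reads divided by those of an even spread along the transcripts, for 12 seed families in wildtype and Ago2 CD (reads of both libraries of a genotype summed). The wildtype value of miR-451a, 12.7, stands above all others, and its Ago2 CD value is 0.934.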

How the data were processed

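The deposited counts list distinct read sequences with their number of reads, not normalized. Per the labels' protocols, total RNA was extracted with Trizol and made into TruSeq small RNA libraries. Per the submitters' processing notes, cutadapt was used. Its version, an aligner and a build are not given in the sources used here. Here reads of 20 nt or more were matched exactly to 2202 miRNA hairpins and then to 58797 protein-coding transcripts of GENCODE M21 (GRCm38). Genomic tRNA genes were not in the annotation used. MiRNA sequences are from RefSeq and fragments from the deposited reads.

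Genes, 5′ ends (first 20 nt) and words of 7 nt were each fitted in edgeR 4.0.16 under R 4.3.3 by quasi-likelihood (glmQLFTest, TMM, filterByExpr, two-sided, Benjamini-Hochberg), over all features of the kind and all 4 libraries. Standard errors are the fold change over the root of F. DESeq2 1.42.0 was an alternative. Structures came from RNAfold 2.7.2. Other software was Python 3.11.15, SciPy 1.17.1 and matplotlib 3.10.9. The functions were tested on simulated data.

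The members, lists and rules were chosen with earlier results of these data known. Named were the 20 members with most reads, 5 per direction by p among those not overlapping, the 6 largest and 4 smallest 5′ end shares, 3 5′ ends per direction, up to 4 members per list, the 3 genes on each side of the rank limit and Ago2. Members with sites and the word test were chosen after their values were seen. With n = 2, p-values rest on the spread of these libraries.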

Additional observations from a re-analysis of the deposited data

How the results depend on the processing

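Main values were 3 called genes (0 of the 100), 0 called ends and 19 called words. Called genes numbered 1 with DESeq2, 7 with no filter, 0 for reads of 25 nt or more (349 genes tested), 1 without the most frequent 5′ end and 15 with the longest sequence of a library (50 or 46 nt) as a batch, an inferred split. Without 1 library they numbered 8 to 14. Of the 100 genes, 1 was called with no TMM, 2 with no filter, 4 with that batch and 0 to 2 on leaving out each library. Called ends numbered 5 (2 in members) with DESeq2, 25 (11) with that batch and 0 to 4 (0 to 1) on leaving out each library. Called words numbered 1 without Ppia, 543 with reads outside hairpins as library size, 94 with that batch and 20 to 32 on leaving out each library. The share ratio of 2.17 was 2.82 over all reads of 20 nt or more, 1.11 over fragment reads of 1 gene, 1.46 with each distinct sequence counted once, 2.83 and 1.68 within the 50 nt and 46 nt libraries, and 1.91 to 2.53 on leaving out each library. Differences in percentage points turned for the coding sequence from -4.32 to 1.80 (distinct sequences) and 1.12 (median over genes), for junctions from -0.67 to 0.059 and 0.57, for the most frequent 5′ end from 7.68 to -1.67 and -1.96, and for the 3′ UTR from 1.32 to -1.75 and -0.62. The most frequent 5′ end was here taken in each library by itself. Reads matching other transcripts went from 6.41 to -0.058 with distinct sequences (0.53 as the median). Leaving out each library gave -10.33 to 12.98 for the 3′ UTR, -8.09 to 20.91 for other transcripts and -1.06 to 1.40 nt for mean length. Log2 differences that turned were ATACTGT without wildtype replicate 1 (-0.0692, with 0.962 as the highest value without 1 library), Hspa8 (-0.0154) and Ppia (0.26) without reads matching other transcripts, Arrb1 for 25 nt or more (0.33), and, with reads outside hairpins as library size, Xpo7 (0.0867), Ermap (0.44), Arrb1 (0.39) and Ranbp10 (0.49). The cause of these changes was not tested. With the replicate number as a block, 4 genes, 0 ends and 19 words were called, with 0 of the 100 genes. Deviations of same-numbered libraries correlated at -0.23 over 2312 genes, so the number was not taken as a pairing; with the pairing crossed, which is also the split by longest sequence, 9 genes were called higher and 6 lower. Alternatives that need a genome were not run. With 2 libraries per genotype and a median of 434.5 reads per gene, small differences were not detectable.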

Other observations

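Reads on the opposite strand of the 100 genes were few. They numbered 536 in all, 70 genes had none, and 3 genes had 10 or more: D10Wsu102e with 235, Tmem72 with 206 and Noct with 42. D10Wsu102e and Tmem72 also had 60.8% and 59.4% of their sense reads matching other transcripts, and Noct 85.8%.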
